A study of Mus musculus with 68 samples.

Results

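The inner cell mass (ICM) and the trophectoderm (TE) of control fertilized blastocysts were compared in 4 RNA-seq libraries, 2 of the ICM and 2 of the TE, out of 68 libraries in the whole series. The members were chosen by their titles alone, which name the lineage and the control condition, and all genes with a symbol were compared. The study examined H3K9me3 in mouse embryos made by somatic cell nuclear transfer (SCNT), and used fertilized embryos to knock down the transcription factor Max and the chromatin factor Mcrs1 with morpholinos (MO). The 12 fertilized libraries hold the ICM and TE of control, Max MO and Mcrs1 MO blastocysts, with 2 libraries per group, and the 12 SCNT blastocyst libraries hold 6 of each lineage.

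The control embryos came from C57BL/6j females of 8 to 10 weeks, superovulated and mated to males of the same strain, and no transgene or deletion is given for any group compared here. The treatment label of the controls reads untreated, whereas the protocols and methods describe controls injected as zygotes with an MO of random sequence. The MO concentrations were 1 mM for the control, 0.3 mM for Max and 0.2 mM for Mcrs1. The SCNT embryos were made from cumulus cells and oocytes of BDF1 mice (B6D2F1 in the methods), so that SCNT and strain cannot be told apart in any comparison with the controls. The lineages were taken apart by micromanipulation, by position and size of the cells, and about 10 blastomeres went into each library made by Smart-seq2, which copies polyadenylated RNA from few cells. The libraries of a group are described as biological replicates, but the sources used here do not say how many embryos gave each one. The p-values measure the spread between libraries only. In the main fit that spread was shared by all fertilized groups, so the control calls also rest on the spread of the Max MO and Mcrs1 MO libraries.

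The TE is the outer epithelium of the blastocyst. It pumps fluid into the cavity, attaches to the uterus and founds the placenta, and its cells are polarized, joined by tight junctions and filled with keratins 8 and 18. The ICM holds the epiblast, which forms the body and expresses Nanog and Pou5f1, and the primitive endoderm, which forms the yolk sac lining and expresses Gata6 and later Sox17 and Gata4. Outer cells switch off Hippo signalling, and Tead4 with its coactivator Yap1 then turns on Cdx2 and Gata3, while FGF4 from epiblast cells directs the choice between epiblast and primitive endoderm.

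The promoters of the marker genes of each lineage are shown here with those of some of the called genes that hold an octamer, the site read by Pou5f1. Each is a RefSeq sequence on GRCm38.p6 from 250 bases before to 50 bases after a transcription start, and capitals mark any match, on either strand, to the octamer ATGCAAAT or to the motif of TEAD, GATA, TFAP2, E-box or KLF factors, whose letters are spelled out with the shares of promoters that hold them.
Nanog, chr6:122707239-122707538, plus strand: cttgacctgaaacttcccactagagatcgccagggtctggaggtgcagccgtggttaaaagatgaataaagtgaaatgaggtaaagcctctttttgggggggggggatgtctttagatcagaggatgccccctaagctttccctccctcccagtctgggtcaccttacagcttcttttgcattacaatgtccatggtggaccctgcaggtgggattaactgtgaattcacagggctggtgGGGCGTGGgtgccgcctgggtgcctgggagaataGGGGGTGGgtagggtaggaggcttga
Cdx2, chr5:147307200-147307499, minus strand: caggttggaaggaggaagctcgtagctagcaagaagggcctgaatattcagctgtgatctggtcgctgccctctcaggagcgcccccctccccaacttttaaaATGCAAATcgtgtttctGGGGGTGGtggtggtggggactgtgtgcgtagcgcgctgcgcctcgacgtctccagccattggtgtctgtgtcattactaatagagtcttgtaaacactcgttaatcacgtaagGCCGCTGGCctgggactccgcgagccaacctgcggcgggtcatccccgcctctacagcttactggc
Krt18, chr15:102027966-102028265, plus strand: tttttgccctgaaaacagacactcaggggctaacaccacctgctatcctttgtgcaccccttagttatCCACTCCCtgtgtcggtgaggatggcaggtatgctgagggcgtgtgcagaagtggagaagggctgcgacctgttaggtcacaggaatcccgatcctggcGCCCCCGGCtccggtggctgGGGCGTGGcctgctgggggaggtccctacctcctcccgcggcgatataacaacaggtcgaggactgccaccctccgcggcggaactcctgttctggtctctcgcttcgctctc
Spp1, chr5:104435942-104436241, plus strand: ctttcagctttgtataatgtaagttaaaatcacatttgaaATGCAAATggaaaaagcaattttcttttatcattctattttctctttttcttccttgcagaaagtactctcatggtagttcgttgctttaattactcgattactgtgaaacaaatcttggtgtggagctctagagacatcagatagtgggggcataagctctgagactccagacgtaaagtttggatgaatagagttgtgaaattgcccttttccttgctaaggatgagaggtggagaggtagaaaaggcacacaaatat
Liph, chr16:21995493-21995792, minus strand: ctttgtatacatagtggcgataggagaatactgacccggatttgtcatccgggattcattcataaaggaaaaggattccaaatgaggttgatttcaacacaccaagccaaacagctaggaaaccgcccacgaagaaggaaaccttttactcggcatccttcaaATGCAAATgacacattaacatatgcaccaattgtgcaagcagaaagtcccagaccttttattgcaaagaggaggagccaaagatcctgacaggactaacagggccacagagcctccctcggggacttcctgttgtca
Elf3, chr1:135258423-135258722, minus strand: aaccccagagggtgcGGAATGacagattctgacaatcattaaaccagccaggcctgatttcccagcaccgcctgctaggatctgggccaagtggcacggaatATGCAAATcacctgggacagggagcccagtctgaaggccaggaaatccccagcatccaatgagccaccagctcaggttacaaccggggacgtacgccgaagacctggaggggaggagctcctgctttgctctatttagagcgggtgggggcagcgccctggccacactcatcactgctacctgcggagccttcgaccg

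In the window printed for Nanog, one of its 2 RefSeq starts, the KLF letters began 10 bases before and 24 bases after the start. The window of the other start holds the same KLF letters 86 and 52 bases before that start, and TFAP2 letters 16 bases after it. The Cdx2 window held an octamer 147 bases before the start, beside KLF letters 130 bases and TFAP2 letters 16 bases before it. The Krt18 window held TFAP2 letters 83 bases before the start and KLF letters 182 and 63 bases before it. The octamer began 210 bases before the second of 2 RefSeq starts of Spp1, 87 bases before the start of Liph and 148 bases before that of Elf3. The window of the first Spp1 start held no match to any of these motifs.

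Expression was read as TPM, a length-scaled transcript abundance, on the scale of the deposited tables. The TPM of 24421 gene symbols summed to 85.5% to 90.3% of 1000000 in the 4 control libraries. The ratio of the coverage to the FPKM column, which estimates aligned gigabases from how StringTie defines both, was between 1.00 in TE replicate 1 and 2.32 in ICM replicate 2. Between 9934 and 10928 genes reached 1 TPM per library. Of 10 housekeeping genes, with Ldha among them, 0 were below 1 TPM in any of the 4. The tables hold no counts, so the reads behind a value are not known and a gene listed at 0 may have been missed. Differences are ICM minus TE on log2(TPM + 1), a scale that understates the change of low genes, and were tested with limma on the 11219 genes whose TPM averaged 1 or more in the 12 fertilized libraries. A gene is called here when its Benjamini-Hochberg adjusted p was under 0.05 and it differed at least 2-fold.

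The label ICM held in both libraries by the genes of the epiblast, but the libraries disagreed on the genes of the TE. Nanog (chromosome 6 of mm10, 122707489 to 122714633), a transcription factor that keeps the epiblast pluripotent, stood at 561 and 639 TPM in the ICM libraries and at 135 and 175 TPM in the TE libraries. Cdx2 (chromosome 5, 147300900 to 147307249), a transcription factor of the TE, stood at 57.7 and 0.222 TPM in ICM replicates 1 and 2 and at 68.3 and 54.6 TPM in the TE. Nanog thus separated the groups, whereas for Cdx2 ICM replicate 1 lay between the TE libraries.

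The ICM libraries also disagreed across the trophectoderm list, although both TE libraries lay above both ICM libraries for 23 of its 36 tested genes. Krt18, the keratin of simple epithelia, stood at 10274 TPM in ICM replicate 1 and 108 TPM in ICM replicate 2, against 12846 and 11171 TPM in the TE. Gata3, a TE transcription factor, stood at 1509 and 63.7 TPM in the ICM and at 1582 and 1979 TPM in the TE. Over the 40 genes of the list the summed level was 22182 TPM in ICM replicate 1, 1556 TPM in ICM replicate 2, and 29521 and 27099 TPM in the TE, and 6 and 8 of the 40 were listed at 0 in the ICM libraries.

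ICM replicate 1 therefore stands apart from ICM replicate 2 and carries TE markers near the TE level, and the counts of called genes, over all genes and in each list, are given with and without it. Of the 11219 genes, 4393 (39.2%) lay at least 2-fold apart between the ICM libraries and 1966 (17.5%) between the TE libraries. ICM replicate 1 was 2-fold apart from the TE libraries at 3271 and 3269 genes, fewer than from its own replicate. ICM replicate 2 was 2-fold apart from the TE libraries at 4980 and 4708 genes, more than from its own replicate. Which ICM library is the less typical was not tested, and no counts by list are given without ICM replicate 2. Pearson's r of log2(TPM + 1) over these genes, which are not independent, was 0.804 between the ICM libraries, 0.879 and 0.889 between ICM replicate 1 and the TE, and 0.772 and 0.807 between ICM replicate 2 and the TE. In such bulk samples more cells of a type and more RNA per cell cannot be told apart.

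**Figure D1:**
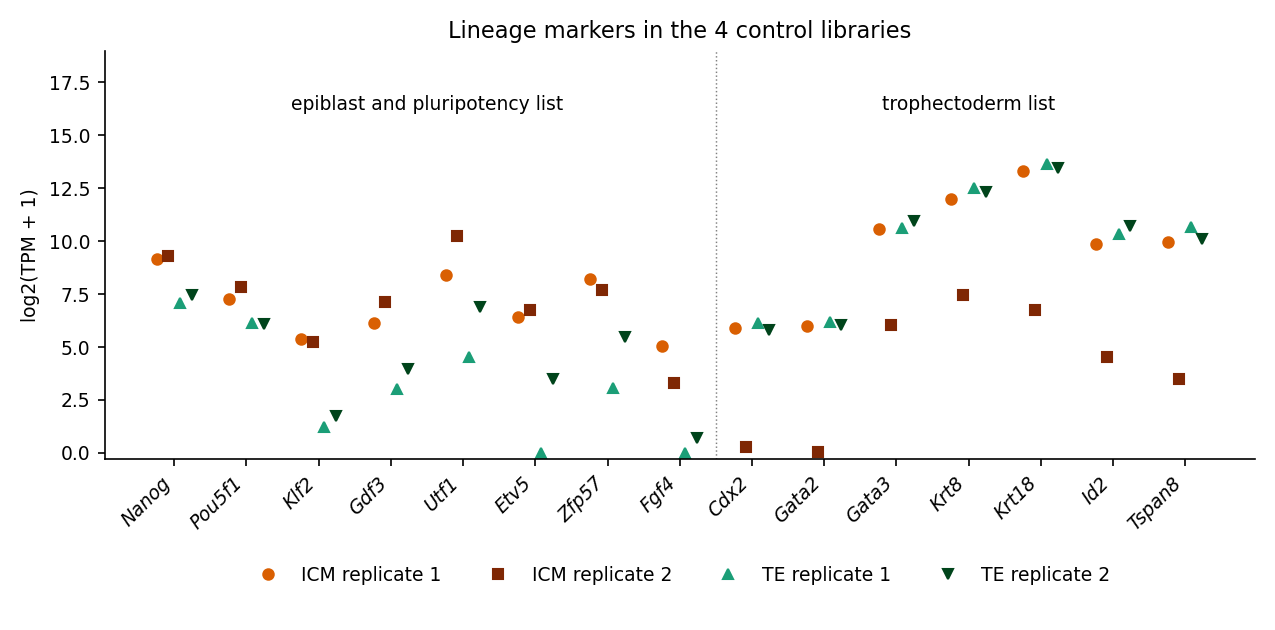
log2(TPM + 1) of 8 genes of the epiblast and pluripotency list and 7 genes of the trophectoderm list, each symbol being 1 control library. Both ICM libraries lie above both TE libraries for the epiblast genes, while for the trophectoderm genes only ICM replicate 2 lies far below the TE.

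**Figure D2:**
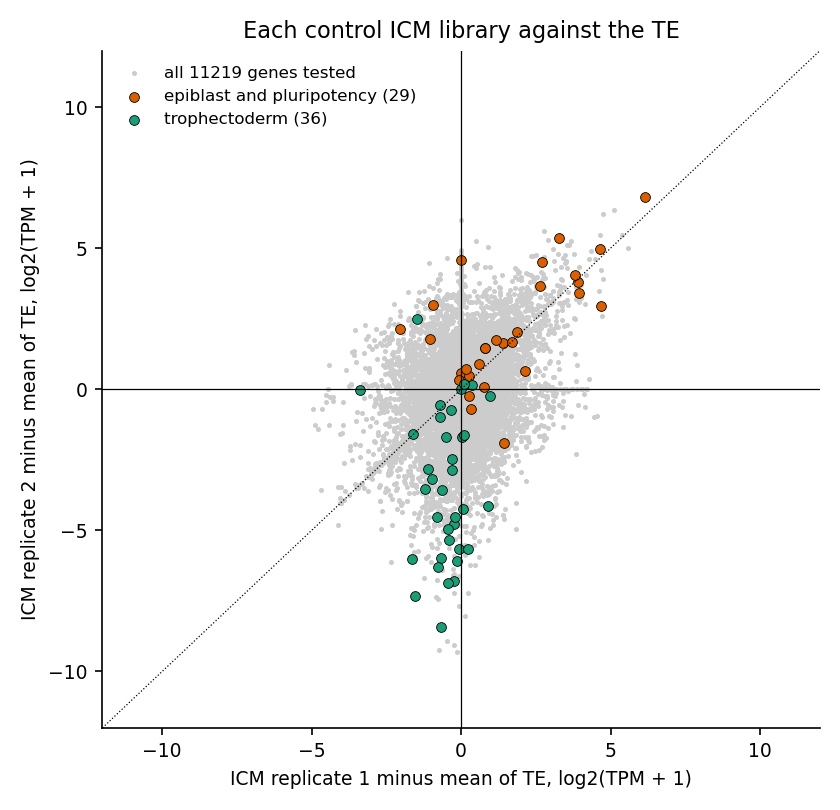
Difference of each control ICM library from the mean of the TE libraries, replicate 1 across and replicate 2 upward, for all 11219 genes tested, with the 29 tested epiblast and pluripotency genes in orange and the 36 tested trophectoderm genes in green. Many trophectoderm genes lie near 0 for replicate 1 and far below 0 for replicate 2, and many epiblast genes lie to the upper right.

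With all 4 libraries, 328 genes (2.92% of those tested) were called, 193 (1.72%) higher in the ICM and 135 (1.20%) higher in the TE. Without ICM replicate 1, where the lone ICM library is assumed to vary like the other groups, 2283 of 11146 genes (20.5%) were called, 931 (8.35%) higher in the ICM and 1352 (12.1%) higher in the TE, including 186 of the 193 and 131 of the 135. Without TE replicate 1, the library with the fewest aligned gigabases, 2 and 0 genes were called, of which 1 was among the 193. Without ICM replicate 2 the counts were 114 and 156, which included 66 of the 193 and 66 of the 135, and without TE replicate 2 they were 79 and 22, which included 57 and 15. A fit of the 4 libraries alone called 0 genes in limma, with 1118 at an unadjusted p under 0.05, and an exact permutation test of 2 libraries against 2 cannot go below p = 0.333. Both ICM libraries lay above both TE libraries at 2493 genes (22.2%) and below both at 2402 (21.4%). The shares in this paragraph are the background for the counts of each list, with and without ICM replicate 1.

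The genes called without ICM replicate 1 let that library be read as one that took no part in the call. Of the 1352 called higher in the TE, ICM replicate 1 lay nearer to the TE mean than to ICM replicate 2 for 1106 (81.8%), and of the 931 called higher in the ICM for 557 (59.8%). The mirror reading was lower in both directions. Of the 156 genes called higher in the TE without ICM replicate 2, that library lay nearer to the TE for 83 (53.2%), and of the 114 called higher in the ICM for 40 (35.1%). A gene chosen for an extreme value in the library that was kept tends to look less extreme in the library left out, so these shares are descriptions only.

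Of the epiblast and pluripotency list, 29 of 31 genes were tested, and 7 were called higher in the ICM and 0 in the TE, with a median difference of 1.38 against -0.01 over all genes tested. Leaving out ICM replicate 1, 11 of 28 were called higher in the ICM, with a median of 1.77 against 0.00, and all 7 were among them.

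Pou5f1, the octamer factor at the base of pluripotency, held 153 and 230 TPM in the ICM and 68.7 and 67.0 TPM in the TE (difference 1.45, standard error 0.24, limma adjusted p = 0.0178). The groups did not overlap, and the gene stayed at a substantial level in the TE. Klf2, a factor of naive pluripotency, held 40.9 and 37.3 TPM in the ICM and 1.30 and 2.35 TPM in the TE (3.85, standard error 0.59, limma adjusted p = 0.0149). Its ICM libraries were closer to each other than those of any other called gene of the list shown in the marker plot.

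Gdf3, a ligand of the Nodal family, held 69.0 and 141 TPM in the ICM and 6.95 and 14.6 TPM in the TE (3.16, limma adjusted p = 0.0129). Utf1, a chromatin factor of pluripotent cells, held 338 and 1201 TPM in the ICM and 22.3 and 116 TPM in the TE (3.61, limma adjusted p = 0.0382). Zfp57, which protects imprints from loss of methylation, held 300 and 209 TPM in the ICM and 7.48 and 43.9 TPM in the TE (3.69, limma adjusted p = 0.0308). For each of these the ICM libraries both lay above the TE, and TE replicate 2 held more than TE replicate 1.

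In the FGF and MAPK list the ligand Fgf4 and the target Etv5 were called. Fgf4 held 32.0 and 8.89 TPM in the ICM, was listed at 0 in TE replicate 1 and held 0.644 TPM in TE replicate 2 (3.82, limma adjusted p = 0.0237). Etv5, an ETS factor induced by FGF and MAPK signals, held 83.7 and 106 TPM in the ICM, was listed at 0 in TE replicate 1 and held 10.4 TPM in TE replicate 2 (4.82, limma adjusted p = 0.0280). These 2 were the called genes among 21 tested of the FGF and MAPK list, whose median was 0.30. Both calls were lost with every detected gene kept (limma adjusted p = 0.0539 and 0.080), and they are not read as a result about the pathway. Of all genes tested 1.72% were called higher in the ICM. In the fit without ICM replicate 1, 3 of the 21 were called higher in the ICM and 2 higher in the TE.

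Several epiblast genes had large differences but missed the threshold. Nanog differed by 1.95 (standard error 0.50, limma adjusted p = 0.0592), and without ICM replicate 1 by 2.05 (limma adjusted p = 0.0329). Tdgf1, a coreceptor of Nodal, held 631 and 989 TPM in the ICM, was listed at 0 in TE replicate 1 and held 77.2 TPM in TE replicate 2 (6.48, standard error 1.85, limma adjusted p = 0.0801). Spic, an ETS factor, held 859 and 1016 TPM in the ICM and 16.5 and 210 TPM in the TE (3.94, limma adjusted p = 0.0626). In both the TE libraries were far apart.

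Of the trophectoderm list, 36 of 40 genes were tested and 1 was called higher in the TE with all 4 libraries, and the median difference was -2.08. Both TE libraries lay above both ICM libraries for 23 of the 36, against 21.4% of all genes tested. The called gene was Ptges, which makes prostaglandin E. It held 47.3 and 13.7 TPM in the ICM and 99.3 and 109 TPM in the TE (-1.97, standard error 0.44, limma adjusted p = 0.0409). ICM replicate 1 was set apart by markers of this list, so leaving it out was bound to favour calls in the TE. The fit without it also rests on 1 ICM library. Without ICM replicate 1, 25 of the 36 were called higher in the TE and 0 higher in the ICM, and the median was -3.56.

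Krt8, the partner of Krt18 in the keratin filament, held 4098 and 175 TPM in the ICM and 5944 and 5099 TPM in the TE. Its difference was -2.70 (limma adjusted p = 0.150) with all libraries and -4.97 without ICM replicate 1, the library set apart by such markers. For Krt18 the values were -3.50 (limma adjusted p = 0.186) and -6.78. Both keratins have pseudogene copies that may take some of their reads. They ran from the lowest to nearly the highest level within the libraries labelled ICM.

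Gata2, which acts beside Gata3 in the TE, held 61.9 and 0.0233 TPM in the ICM and 71.9 and 64.4 TPM in the TE. Eomes, a T-box factor of trophoblast stem cells, held 35.7 and 7.05 TPM in the ICM and 77.0 and 66.4 TPM in the TE (-2.08, limma adjusted p = 0.0867). For Eomes ICM replicate 1 lay below both TE libraries, and for Gata2 it lay just below them.

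Of the primitive endoderm list, 22 of 24 genes were tested, 3 were called higher in the ICM and 1 higher in the TE, with a median of 0.50. These counts became 8 and 2 without ICM replicate 1, with a median of 0.15. The defining factors Gata4 and Sox17 were at or near 0 in all 4 libraries, with highest values of 0.0808 and 0.133 TPM, both in ICM replicate 2. Gata6, the earliest factor of the lineage, was at 30.5 and 21.8 TPM in the ICM and 25.6 and 30.0 TPM in the TE, with overlapping groups.

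The 3 genes of the list that were called higher in the ICM are matrix genes. Col4a1 and Col4a2, the chains of basement membrane collagen, stood in the ICM at 29.0 and 23.0 TPM and at 15.3 and 12.7 TPM. In the TE Col4a1 stood at 1.26 and 2.43 TPM, and Col4a2 was listed at 0 in replicate 1 and stood at 0.266 TPM in replicate 2. Their differences were 3.27 (limma adjusted p = 0.0149) and 3.73 (limma adjusted p = 0.0129).

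Sparc, a matrix protein, held 52.2 and 110 TPM in the ICM and 5.78 and 15.04 TPM in the TE (2.88, limma adjusted p = 0.0138). Lrp2, an endocytic receptor, went the other way, with 21.8 and 5.84 TPM in the ICM and 66.7 and 74.0 TPM in the TE (-2.51, limma adjusted p = 0.0316). Dab2, the adaptor of that receptor, held 1438 and 1.49 TPM in the ICM and 2072 and 1201 TPM in the TE, so that ICM replicate 1 lay between the TE libraries. Members of the list thus lay on both sides.

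In the other blastocysts the same factors were measured in libraries that share none with the controls, and each pair of MO libraries is given with its lower value first. Sox17 held 32.5 and 178 TPM in the Max MO ICM and 22.5 and 38.2 TPM in the Mcrs1 MO ICM, and among 6 SCNT ICM libraries it ran from 0 over a median of 0.0261 to 62.3 TPM. Gata4 held 2.52 and 26.1 TPM in the Max MO ICM and 6.99 and 14.7 TPM in the Mcrs1 MO ICM, and in the SCNT ICM its highest value was 0.247 TPM. The control ICM was thus among the groups with little of either. With the treatment by lineage term, 0 genes were called for either MO in limma with all libraries, at 1473 genes with an unadjusted p under 0.05 for Max MO and 972 for Mcrs1 MO. Without control ICM replicate 1 the term called 507 genes for Max MO and 840 for Mcrs1 MO, and without control ICM replicate 2 it called 402 and 14.

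Of the junction and polarity list all 42 genes were tested, 1 was called higher in the ICM and 1 higher in the TE, and the median was -0.67. They became 2 and 17 without ICM replicate 1, with a median of -1.11. Epcam, an epithelial adhesion protein, held 1009 and 653 TPM in the ICM and 1968 and 2167 TPM in the TE (-1.35, limma adjusted p = 0.0260). Ezr, a membrane linker of actin, held 169 and 277 TPM in the ICM and 50.7 and 60.4 TPM in the TE (1.95, limma adjusted p = 0.0308). Slc9a3r1, a scaffold bound by ezrin, had an opposite sign, with 136 and 26.7 TPM in the ICM and 282 and 384 TPM in the TE, but missed the threshold (-2.42, limma adjusted p = 0.0550).

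Of 25 tested genes of the Hippo pathway, 1 was called higher in the ICM and 0 in the TE, with a median of -0.33, and without ICM replicate 1 the counts were 2 and 2. Ctgf, a common target of Yap1, held 30.1 and 223 TPM in the ICM and 1.29 and 8.09 TPM in the TE (4.19, limma adjusted p = 0.0452). Its ICM libraries were far apart but both lay above the TE. Over all genes tested 1.72% were called higher in the ICM and 1.20% in the TE. A single call is thus not read as a result about the pathway. Of 21 tested genes of Nodal and BMP signalling 2 were called higher in the ICM, Gdf3 and Foxh1, and 0 in the TE, and without ICM replicate 1 the counts were 2 and 2. Foxh1, the DNA-binding partner of Nodal's SMADs, held 32.3 and 128 TPM in the ICM and 6.22 and 6.61 TPM in the TE (3.15, limma adjusted p = 0.0260).

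Of 23 cholesterol synthesis genes, all tested, 2 were called higher in the TE and 0 in the ICM. Of all genes tested 1.20% were called higher in the TE. The median of the list was -0.95, and both TE libraries lay above both ICM libraries for 17 of the 23, against 21.4% of all genes tested. Fdft1, squalene synthase, held 28.6 and 35.3 TPM in the ICM and 125 and 152 TPM in the TE (-2.08, limma adjusted p = 0.0392). Insig1, a sterol sensor of the same pathway, held 30.5 and 16.9 TPM in the ICM and 64.6 and 94.7 TPM in the TE (-1.74, limma adjusted p = 0.0499). Insig1 lost its call with a pseudocount of 0.1, with every detected gene kept, with TPM rescaled over annotated genes, with the length trend removed and with either replicate block (limma adjusted p = 0.0529 to 0.1001). Fdft1 lost its call with every detected gene kept and with the block by treatment and number (limma adjusted p = 0.105 and 0.0610), and neither of the 2 was called in those fits. When ICM replicate 1 was left out, 10 of the 23 were called higher in the TE and 1 higher in the ICM.

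Of 23 tested genes of H3K9 methylation, 3 were called higher in the ICM and 0 in the TE, with a median of 0.08. The list is wider than H3K9me3, the mark the study was about. Kdm3a, a demethylase of H3K9, held 119 and 124 TPM in the ICM and 13.7 and 23.2 TPM in the TE (2.70, limma adjusted p = 0.0178). Hdac1, a histone deacetylase, held 283 and 491 TPM in the ICM and 141 and 177 TPM in the TE (1.23, limma adjusted p = 0.0324). The third was Zfp57, and of all genes tested 1.72% were called higher in the ICM. Without ICM replicate 1, 5 were called higher in the ICM and 4 higher in the TE. Of the 20 factors named in the study, Max and Mcrs1 among them, 0 were called with all libraries, and 1 higher in the ICM and 3 higher in the TE without ICM replicate 1.

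Few genes were called in the remaining lists, and of all genes tested 1.72% were called higher in the ICM and 1.20% in the TE. Of 19 tested glycolysis genes 1 was called, Ldha, which makes lactate, at 42.5 and 127 TPM in the ICM and 1.72 and 3.22 TPM in the TE (4.46, limma adjusted p = 0.0149). Of 20 tested stress and death genes 1 was called, the tumour suppressor Trp53, at 262 and 420 TPM in the ICM and 47.4 and 106 TPM in the TE (2.21, limma adjusted p = 0.0292). Without ICM replicate 1 the counts higher in the ICM and in the TE were 3 and 4 for glycolysis and 2 and 3 for stress and death. In the lists of blastocoel transport (14 tested), DNA methylation (13 tested) and sex chromosome transcripts (11 tested) 0 were called with all libraries, and without that library the counts were 4 and 3, 4 and 3, and 0 and 1.

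Of the 20 cumulus cell markers between 12 and 17 were listed at 0 in each control library, and 4 were tested. The called one was Gja1, a gap junction protein that embryos also use, at 1028 and 1160 TPM in the ICM and 314 and 546 TPM in the TE (1.40, limma adjusted p = 0.0428), and it was also the 1 called without ICM replicate 1. Of 20 oocyte and polar body genes 3 were listed at 0 in ICM replicate 2, against 13 in ICM replicate 1 and 15 and 11 in the TE. In ICM replicate 2 Gdf9 held 8.39 TPM, Zp3 8.41, H1foo 16.05 and Bcl2l10 13.7, and in ICM replicate 1 all 4 were listed at 0. Without ICM replicate 1, 5 of 10 tested oocyte genes were called higher in the ICM, against 0 of 9 with all libraries. The part of these genes in the other results was not tested.

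**Figure D3:**
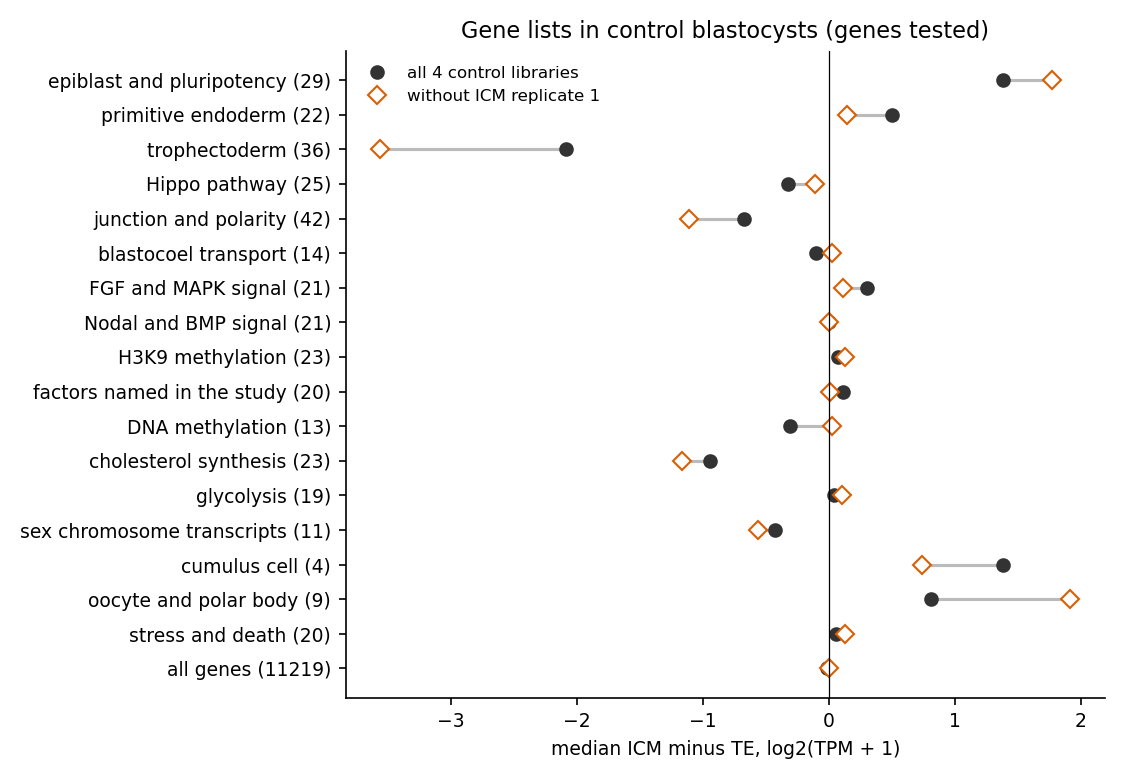
Median difference, ICM minus TE on log2(TPM + 1), of each gene list with all 4 control libraries (filled circles) and without ICM replicate 1 (open diamonds), with the number of genes tested in parentheses. The trophectoderm median lies at -2.08 and moves to -3.56, the epiblast and pluripotency median lies at 1.38 and moves to 1.77, and all genes lie near 0.

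Among called genes with separated libraries and a mean of at least 5 TPM in their higher group, the 12 largest differences in each direction were followed. All 24 were also called without ICM replicate 1, 22 without ICM replicate 2, 16 without TE replicate 2 and 0 without TE replicate 1. Their limma adjusted p-values ran from 0.00964 to 0.0474.

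The genes higher in the ICM were led by Tcl1 (chromosome 12 of mm10, 105216755 to 105222737), a cofactor of the kinase AKT that is high in pluripotent cells. It held 97.7 and 235 TPM in the ICM, was listed at 0 in TE replicate 1 and held 7.12 TPM in TE replicate 2 (5.74, standard error 0.81). Pecam1, an adhesion molecule used to mark the ICM, held 87.8 and 239 TPM in the ICM, was listed at 0 in TE replicate 1 and held 9.68 TPM in TE replicate 2 (5.48, standard error 0.92). Both separated the groups, as the choice of these genes required.

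Upp1, uridine phosphorylase, held 438 and 466 TPM in the ICM and 1.48 and 44.4 TPM in the TE (5.42). Spp1, osteopontin, whose octamer window is printed above, held 1490 and 1974 TPM in the ICM and 22.2 and 147 TPM in the TE (4.87). Fn1, fibronectin, held 65.5 and 96.0 TPM in the ICM and 0.862 and 4.78 TPM in the TE (4.61). With Spp1 and Upp1, the most abundant of the 12 by the mean of the ICM libraries was Mgarp, a mitochondrial protein, at 285 and 803 TPM in the ICM and 5.35 and 83.8 TPM in the TE (4.37).

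Slc6a15, an amino acid transporter, held 18.3 and 23.6 TPM in the ICM and was listed at 0 in both TE libraries (limma adjusted p = 0.0109). The others were Gm2016 (5.29), the cell cycle regulator Rgcc (5.06), Ei24 (4.47) and, already described, Etv5 and Ldha.

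Higher in the TE, Pon2, a lactonase, held 16.96 and 0.305 TPM in the ICM and 88.8 and 90.8 TPM in the TE (-4.23). Stag2, a cohesin subunit on the X chromosome, held 1.92 and 5.32 TPM in the ICM and 90.9 and 60.1 TPM in the TE (-4.12). Gata1, a GATA factor known from blood, held 4.49 and 0.137 TPM in the ICM and 23.6 and 50.2 TPM in the TE (-3.83). For all 3, ICM replicate 1 lay below both TE libraries, which the choice of these genes by separated libraries required. Cdx2, Krt18 and Gata3, at which it lay within or close to the TE levels, were not chosen in that way.

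Among the 12 TE genes were some that were listed at 0 in both ICM libraries. Cebpa, a bZIP transcription factor, was at 14.1 and 16.7 TPM in the TE (limma adjusted p = 0.0178). Prmt2, an arginine methyltransferase, was at 12.8 and 18.0 TPM (limma adjusted p = 0.0149), and Panx1, a channel subunit, at 14.9 and 13.4 TPM (limma adjusted p = 0.00964). Prom1, a membrane protein of cell protrusions, was listed at 0 and at 0.0118 TPM in the ICM and held 13.9 and 17.1 TPM in the TE (-4.03). The others were Mir3112 (-4.47), a microRNA locus inside Cstf2 with which it may share reads, and Sorbs3 (-3.97), Rpusd1 (-3.78), Rem1 (-3.75) and the H3K4 demethylase Kdm1b (-3.74).

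The called genes were then read in the other blastocysts, whose libraries share none with the controls. The 193 genes higher in the control ICM were higher in the ICM of Max MO embryos at 171 (88.6%), of Mcrs1 MO embryos at 163 (84.5%) and of SCNT embryos at 150 of 185 tested (81.1%). Over all genes the same share was 48.2%, 61.1% and 39.2%. The 135 genes higher in the control TE were higher in the TE at 114 (84.4%), 92 (68.1%) and 116 of 133 (87.2%), where all genes gave 51.5%, 38.6% and 60.8%. Their median differences were 1.47, 0.73 and 0.66 for the ICM genes and -0.86, -0.23 and -0.70 for the TE genes.

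The larger lists called without ICM replicate 1 were read in the same way. Of their ICM genes 740 of 921 (80.3%) were higher in the ICM of Max MO, 750 of 921 (81.4%) of Mcrs1 MO and 580 of 865 (67.1%) of SCNT embryos, with medians of 0.88, 0.50 and 0.30. Of their TE genes 82.0%, 61.3% and 82.7% were higher in the TE, with medians of -0.86, -0.13 and -0.66. In Max MO embryos 4 of these TE genes were called higher in the ICM.

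In Max MO embryos 8.03% of all genes and in SCNT embryos 0.221% were called in either direction. By that threshold 86 of the 193 were called higher in the Max MO ICM, where 3.55% of all genes were, and 34 of the 135 higher in the Max MO TE, where 4.48% were. These calls are not independent of the control calls, since the control and MO comparisons came from the same fit and share its spread per gene. The control libraries also entered the SCNT fit. In SCNT embryos 8 of the 185 were called higher in the ICM, where 0.148% of all genes were, and 1 of the 133 higher in the TE, where 0.0738% were. In Mcrs1 MO embryos 0 genes (0.00%) were called in either direction, with 756 at an unadjusted p under 0.05 in limma. In Max MO embryos 0 of the 193 and 0 of the 135 were called the opposite way. The Mcrs1 MO and SCNT embryos had too few calls for opposite ones to be looked for.

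**Figure D4:**
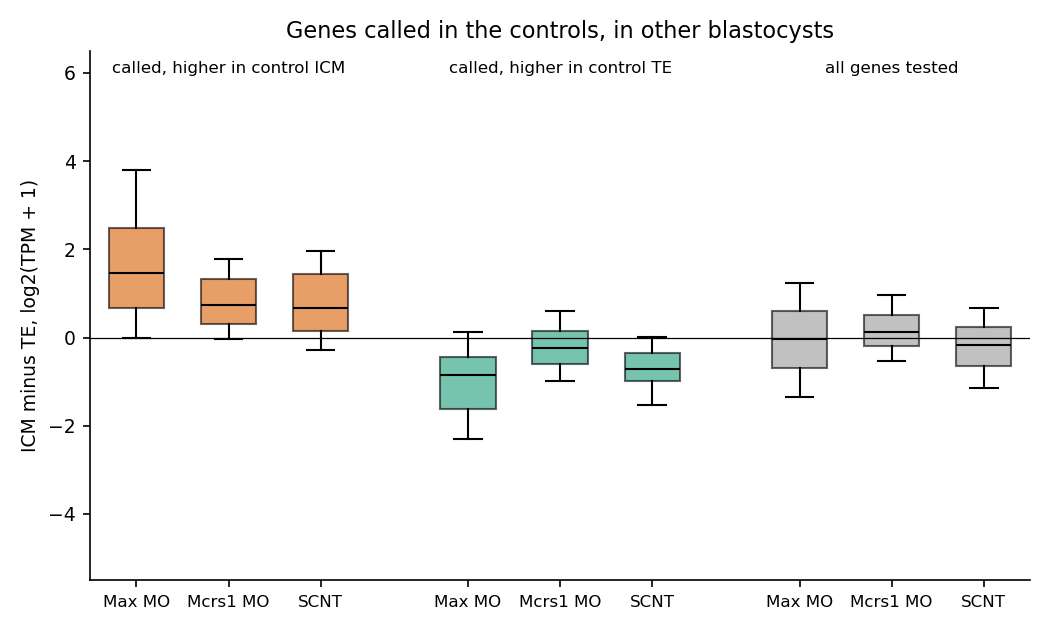
ICM minus TE on log2(TPM + 1) in Max MO, Mcrs1 MO and SCNT blastocysts for the genes called higher in the control ICM, those called higher in the control TE and all genes tested. Boxes span the quartiles with the median as a line and whiskers span the 10th to the 90th percentile of genes, and the medians of the ICM genes lie at 1.47, 0.73 and 0.66.

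The values of single genes are given without a claim that the embryos differ, since the interaction terms of the 5 genes named next had limma adjusted p-values of 0.146 or more. Spp1 differed by 6.26 in Max MO, 1.10 in Mcrs1 MO and 3.03 in SCNT embryos. Klf2 differed by 3.30, 0.41 and 1.62 in the same order, and Col4a1 by 3.80, 2.04 and 0.31. Panx1 and Prmt2, listed at 0 in the control ICM, differed by -0.02 and -0.08 in Max MO embryos and by -0.07 and 0.40 in Mcrs1 MO embryos. Among the 12 TE genes Stag2 and Rem1 were called in Max MO embryos, with -3.28 and -2.72.

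The markers themselves ranged as follows, again with the lower of each MO pair first. Nanog held 224 and 284 TPM in the Max MO ICM against 69.5 and 89.7 TPM in its TE, and in Mcrs1 MO embryos 96.9 and 383 TPM in the ICM and 127 and 216 TPM in the TE. In SCNT embryos Nanog ran from 154 over 250 to 274 TPM in the ICM and from 32.3 over 91.8 to 172 TPM in the TE, given as lowest, median and highest of 6. The groups overlapped in Mcrs1 MO and in SCNT embryos.

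Cdx2 held 3.25 and 3.77 TPM in the Max MO ICM against 22.8 and 30.8 TPM in its TE, and in Mcrs1 MO embryos 17.1 and 28.6 TPM in the ICM and 20.3 and 31.4 TPM in the TE. In SCNT embryos Cdx2 ran from 0 over 2.66 to 8.90 TPM in the ICM and from 1.14 over 10.6 to 33.1 TPM in the TE. At 57.7 TPM, control ICM replicate 1 held more Cdx2 than any of the other 11 ICM libraries, the next being 28.6 TPM. At the other end, control ICM replicate 2 held less Krt18, Krt8 and Gata3 than any other ICM library, at 108, 175 and 63.7 TPM. The next lowest values were 679, 1061 and 72.7 TPM.

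The promoter windows were matched to called genes by symbol, with a RefSeq window found for 8402 of the 11219 tested genes, 138 of the 193 and 98 of the 135. The octamer ATGCAAAT, on either strand, was in the windows of 6 of 138 genes higher in the ICM (4.35%), of 1 of 98 higher in the TE (1.02%) and of 1.58% of all tested genes. The TEAD letters GGAATG were in 11.6%, 17.3% and 14.2%, and the TFAP2 letters GCCNNNGGC in 21.7%, 29.6% and 28.3%. GATA letters AGATAA were in 9.42%, 5.10% and 7.71%, E-box letters CACGTG in 13.0%, 4.08% and 12.2%, and KLF letters GGGNGTGG in 26.1%, 27.6% and 26.2%. Over all promoters of the reference table, tested or not, the octamer was in 1.97%.

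The 6 ICM genes with an octamer were Spp1, Liph, Prrt3, Galnt11, Gm20939 and Zfp428. Liph, a lipase, held 14.7 and 14.6 TPM in the ICM and 2.08 and 2.77 TPM in the TE (2.20, limma adjusted p = 0.0366). Galnt11, a glycosyltransferase, held 46.6 and 46.0 TPM in the ICM and 14.2 and 12.3 TPM in the TE (1.73, limma adjusted p = 0.0351). Prrt3, Gm20939 and Zfp428 differed by 3.37, 2.57 and 2.43. With every detected gene kept, the calls of Spp1, Galnt11, Prrt3, Gm20939 and Zfp428 were lost (limma adjusted p = 0.0581 to 0.0949). The call of Liph was lost with a pseudocount of 0.1 and with the block by treatment and number (limma adjusted p = 0.0531 and 0.0673). The TE gene with an octamer was Elf3, an epithelial ETS factor, at 1183 and 806 TPM in the ICM and 2197 and 2080 TPM in the TE (-1.13, limma adjusted p = 0.0474), and its call was lost with a pseudocount of 0.1, every detected gene kept, rescaled TPM and quantile normalization (limma adjusted p = 0.0540 to 0.129). The genes with an octamer were picked for that match after their values were seen. A match is a string of letters and no measure of binding, and Cdx2, whose window also holds an octamer, was not called with all 4 libraries.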

How the data were processed

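Reads were trimmed (Cutadapt 1.16) and aligned to mm10 (HISAT2) by the authors, who quantified genes with StringTie. The deposited tables give coverage, FPKM and TPM per gene. The deposited TPM column sums to 1000000 over loci assembled in each library, with reference genes listed beside them, so it was treated as a signal on that scale. Deposited FPKM and the coverage signal served only to gauge depth. Rows of one gene were summed. The authors compared genes with DESeq2, which needs counts and could not be used here. log2(TPM + 1) was fitted in limma 3.58.1 (R 4.3.3, lmFit and eBayes with a trend) with 6 groups of 2 libraries, so that all fertilized groups share one spread. The comparison with SCNT used 16 libraries. The method was tested on simulated data. Tables were made with Python 3.11.15, pandas 2.3.3 and matplotlib 3.10.9.

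The members and gene lists were chosen with earlier results of these data known. Genes were named if on a list, if among the 12 largest called differences in a direction with separated libraries and a mean of at least 5 TPM in the higher group, or if past the threshold in a treatment by lineage term. The called genes with an octamer in a promoter window fall outside that rule and were chosen after their values were seen. Replicate numbers are shared between groups, but same-numbered libraries deviated together with r = 0.13 in the controls, -0.02 in Max MO and -0.01 in Mcrs1 MO embryos, so no pairing was used. Alternatives changed the pseudocount, filter, scaling, row choice, fitted libraries, replicate block and transcript length trend, and left out single libraries.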

Additional observations from a re-analysis of the deposited data

Results flagged for a closer look

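1 gene was past the threshold for a lineage difference that is unlike between SCNT and fertilized control blastocysts, by an interaction term in limma over 10847 genes. Snord19, a small nucleolar RNA that lies inside Gnl3 on the same strand and may share its reads, stood at 13.3 and 15.9 TPM in the control ICM and was listed at 0 in both control TE libraries. In the SCNT ICM it was listed at 0 in 5 of 6 libraries and stood at 0.860 TPM in the sixth, and in the SCNT TE its highest value was 0.101 TPM. The interaction was -3.83 (limma adjusted p = 0.0277), and 327 genes had an unadjusted p under 0.05. The call of Snord19 was lost with a pseudocount of 0.1, quantile normalization, the replicate block, SCNT replicates 1 to 3 alone, SCNT replicates 4 to 6 alone and without either control TE library (limma adjusted p = 0.155 to 1), and it was not tested without control ICM replicate 2 or with a mean TPM of at least 5, where its own mean was too low. SCNT ICM replicates 1 to 3 had 6177 to 6771 genes at 1 TPM, against 9011 to 10032 in replicates 4 to 6. In 2 of the former 2 of 10 housekeeping genes were below 1 TPM, where the 10 include Ldha, a gene called between the control lineages. The part of these library differences, and of the strain, in the listed zeros was not tested. Nanog, Cdx2 and Krt18 were examined for outlying libraries in the SCNT groups of 6, and 0 of these 6 sets of values held one.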

How the results depend on the processing

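The count of genes higher in the ICM (193) became 125 with a pseudocount of 0.1 and 89 with every gene detected in any library kept. The count higher in the TE (135) became 63 with all genes. Both were 0 in a fit of the 4 libraries alone. Leaving out 1 library gave 2 to 931 higher in the ICM and 0 to 1352 higher in the TE, with the lowest counts without TE replicate 1 and the highest without ICM replicate 1. The other settings moved neither count by over 1.5 times. With the replicate block the counts were 217 and 145 by number and 177 and 134 by treatment and number.

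The Max MO term (0) became 1 with a pseudocount of 0.1, 45 with all genes and 507 without control ICM replicate 1, 402 without control ICM replicate 2 and 0 without either control TE library. The Mcrs1 MO term (0) became 1, 24, 840, 14 and 0 in the same settings. The SCNT term (1) became 13 with a pseudocount of 5, 105 with all genes, 2 with TPM rescaled over annotated genes, and 0 with a pseudocount of 0.1, a mean TPM of at least 5, quantile normalization, the replicate block, SCNT replicates 1 to 3 alone and SCNT replicates 4 to 6 alone, 27 without control ICM replicate 1, 5 without control ICM replicate 2 and 0 without either control TE library. The causes were not tested.

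Of the 51 named genes that were called, 51 were also called without ICM replicate 1, 35 without ICM replicate 2, 26 without TE replicate 2 and 0 without TE replicate 1. In other settings 22 to 51 were called, and 0 with the 4 libraries alone. Keeping every detected gene left 22 of the 51. Of genes higher in the ICM it lost Utf1, Fgf4, Etv5, Zfp57, Pecam1, Upp1, Spp1, Mgarp, Ctgf, Foxh1, Ezr, Hdac1 and Trp53. It also lost Gja1, Galnt11, Gm20939, Prrt3 and Zfp428. Of genes higher in the TE it lost Ptges, Lrp2, Epcam, Fdft1, Insig1, Pon2, Sorbs3, Gata1, Rem1, Kdm1b and Elf3. With a pseudocount of 0.1 the calls of Etv5, Pecam1, Upp1, Ctgf, Gja1, Ptges, Insig1, Pon2, Gm20939, Liph, Prrt3 and Elf3 were lost, with quantile normalization those of Kdm1b, Prrt3 and Elf3, and with the block by treatment and number those of Fdft1, Insig1, Liph and Zfp428. Gata6 (-0.10; -0.33 without ICM replicate 1) turned to 0.14 without ICM replicate 2 and 0.01 without TE replicate 2. No read counts are given, so the depth behind a single value and the meaning of a listed 0 are not known.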

Other observations

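Genes that both lineages share were also measured. Khdc3, a maternal gene of the oocyte cytoplasm that persists in embryos, stood at 4612 and 5975 TPM in the ICM and at 2967 and 3025 TPM in the TE. It passed the adjusted p but not the fold (0.81, limma adjusted p = 0.0352). Bax, a death effector, stood at 246 and 311 TPM in the ICM and 154 and 162 TPM in the TE, and likewise passed the p alone (0.80, limma adjusted p = 0.0438). Dppa5a, an RNA-binding protein of pluripotent cells, stood at 3530 and 4071 TPM in the ICM and 2818 and 2996 TPM in the TE (0.38, limma adjusted p = 0.161).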
